A study of Mus musculus with 4 samples.

Results

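A set of 10 chromatin regulators of stem cell self-renewal were followed through 4 expression arrays of mouse blood-forming progenitors. They are the DNA methyltransferase genes Dnmt1, Dnmt3a and Dnmt3b, the TET dioxygenase genes Tet1, Tet2 and Tet3, and the Polycomb-associated genes Bmi1, Ezh1, Ezh2 and Asxl1. All 10 were found by symbol among 19938 measured genes, each through the probe set with the highest mean of the 4 arrays. The cells came from bone marrow of C57BL/6 (B6) mice aged 8 weeks and were sorted on the LSK gate (Lin- c-Kit+ Sca-1+), which holds multipotent progenitors as well as haematopoietic stem cells. There were 2 arrays labelled Hif1a-/- and 2 WT arrays, called biological replicates and numbered 1 and 2 in each genotype. The labels do not give the deleted part of Hif1a, the driver of the deletion, whether animals were pooled, or whether a shared number marks a shared day or batch. Signals are given on the log2 scale of the authors' RMA output, so a difference of 1 is a doubling of signal.

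DNA methyltransferases put methyl groups on cytosine: Dnmt1 copies the pattern after replication, and Dnmt3a and Dnmt3b set it anew. TET enzymes oxidise methylcytosine in a reaction that consumes oxygen and 2-oxoglutarate, the first step towards its removal. Polycomb complexes silence genes through histones. PRC2 methylates histone H3 at lysine 27 through its catalytic subunit Ezh2 or Ezh1. PRC1, which contains Bmi1, ubiquitinates histone H2A, and Asxl1 partners the enzyme Bap1 that takes this ubiquitin off. In mouse marrow, loss of Bmi1 exhausts stem cells, and loss of Dnmt3a or Tet2 expands them.

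The signal of Hif1a itself, which encodes the oxygen-regulated subunit of HIF-1, was 10.58 and 10.64 on Hif1a-/- arrays 1 and 2, and 10.37 and 10.99 on WT arrays 1 and 2. The groups overlapped, and since a probe set can lie outside a deleted part, this does not check the genotype labels. Across all genes the arrays paired by number: Pearson's r was 0.995 between the arrays numbered 1 and 0.983 between those numbered 2, against 0.962 between the Hif1a-/- arrays and 0.966 between the WT arrays. Kit encodes the c-Kit of the LSK gate, while Cd34 and Flt3 encode a surface protein and a receptor that do not define it. These genes had log2 signals of 10.92 or more on every array. Each was nevertheless lower on the arrays numbered 2. Kit had 11.32 (Hif1a-/-) and 11.51 (WT) there, against 12.37 (Hif1a-/-) and 12.57 (WT) on number 1. Cd34 had 10.92 (Hif1a-/-) and 12.46 (WT), against 13.30 (Hif1a-/-) and 13.33 (WT). For Flt3 the values were 12.06 (Hif1a-/-) and 11.99 (WT), against 12.78 (Hif1a-/-) and 12.95 (WT). Ly6a, the Sca-1 gene, was not analysed here because no probe set carried its symbol alone. Each difference between genotypes is therefore also given within each number.

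**Figure D1:**
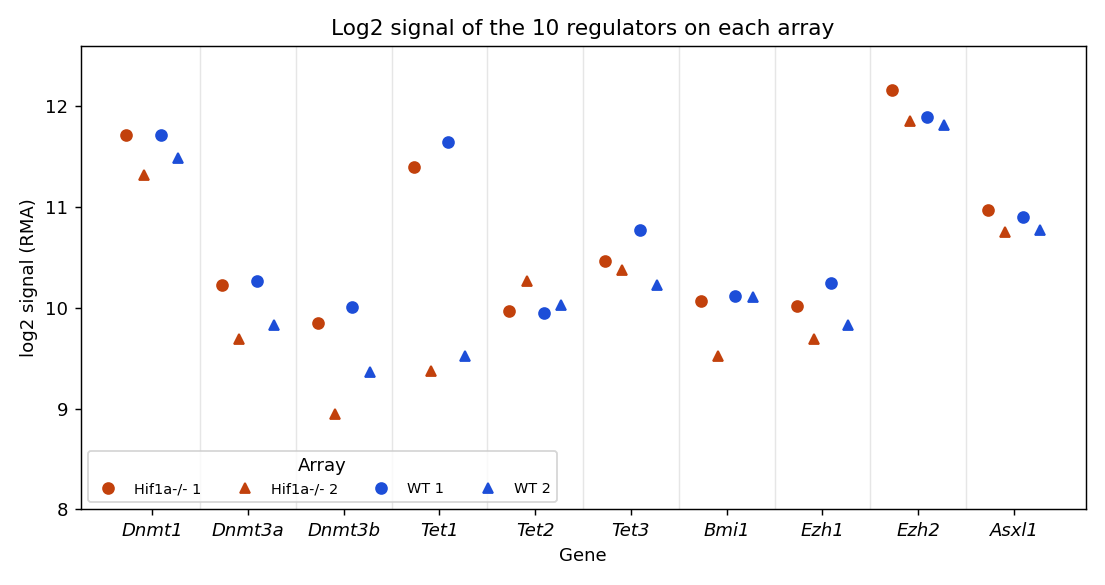
Log2 signal (RMA) of each of the 10 regulators, with 1 point per array, orange for Hif1a-/- and blue for WT, circles for number 1 and triangles for number 2. Tet1 separates by number, with triangles at 9.38 and 9.52 and circles at 11.39 and 11.64, and no gene separates as widely by colour. Heights of different genes come from different probe sets and are not comparable.

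The promoters of 4 members are shown because their genes differ most plainly in what the arrays gave: Tet1 and Dnmt3b had the lowest values on the arrays numbered 2 relative to number 1, Tet2 was the only member higher there, and Bmi1 was the only member whose genotypes did not overlap. Each run is the 250 bases before the RefSeq start on GRCm38.p6, 5′ to 3′ on the gene's strand. Capitals mark the HIF core motif, ACGTG or GCGTG on either strand. The windows are chr10:62887325-62887574 on the minus strand (Tet1), chr3:133544391-133544640 on the minus strand (Tet2), chr2:153649199-153649448 on the plus strand (Dnmt3b) and chr2:18676768-18677017 on the plus strand (Bmi1).
Tet1: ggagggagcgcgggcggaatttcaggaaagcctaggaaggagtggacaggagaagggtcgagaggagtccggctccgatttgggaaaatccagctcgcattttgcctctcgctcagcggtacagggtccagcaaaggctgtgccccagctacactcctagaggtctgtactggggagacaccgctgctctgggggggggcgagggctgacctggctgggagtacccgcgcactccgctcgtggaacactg
Tet2: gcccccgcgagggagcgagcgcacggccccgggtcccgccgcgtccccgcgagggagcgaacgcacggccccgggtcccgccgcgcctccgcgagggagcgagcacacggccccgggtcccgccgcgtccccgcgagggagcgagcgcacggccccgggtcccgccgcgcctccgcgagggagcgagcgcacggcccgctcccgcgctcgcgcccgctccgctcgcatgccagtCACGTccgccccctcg
Dnmt3b: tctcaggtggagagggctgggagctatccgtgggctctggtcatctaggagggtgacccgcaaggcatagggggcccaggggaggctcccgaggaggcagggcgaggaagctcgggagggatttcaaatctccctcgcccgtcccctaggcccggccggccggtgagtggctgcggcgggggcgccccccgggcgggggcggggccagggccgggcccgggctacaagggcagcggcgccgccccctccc
Bmi1: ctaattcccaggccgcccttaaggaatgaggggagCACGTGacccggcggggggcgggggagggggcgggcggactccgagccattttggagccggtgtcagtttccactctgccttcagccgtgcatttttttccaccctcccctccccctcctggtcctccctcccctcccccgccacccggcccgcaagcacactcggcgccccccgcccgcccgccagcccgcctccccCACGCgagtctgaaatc
The Bmi1 window held 3 motif matches, of which 2 are the overlapping strands of a single palindrome, CACGTG. The Tet2 window held 1, and those of Tet1 and Dnmt3b held 0. Among 32851 promoter windows of this length in the table, 38.6% held at least 1 match and 6.02% held CACGTG. The 10 members have 14 windows, of which 6 held a match (in Bmi1, Tet2, Ezh1, Ezh2, Dnmt1 and Dnmt3a). CpG, the dinucleotide that DNA methyltransferases act on, occurred 15 times in the Tet1 window, 51 times in that of Tet2 and 21 times each in those of Dnmt3b and Bmi1, against a median of 6 over all windows. Over the members' 14 windows it ran from 2, in a Dnmt1 window, to 51. A match is a string of letters and not a measured binding site.

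None of the 10 regulators differed between the genotypes past the threshold. In limma's test over all 4 arrays, 0 of the 10 and 0 of 19938 genes (0%) had an adjusted p under 0.05, and 145 genes (0.727%) but 0 members had an unadjusted p under 0.05. The mean was higher in Hif1a-/- for 3 members (Tet2, Ezh2 and Asxl1) and lower for 7, where 49.4% of all genes were lower. The median difference over the members was -0.09 log2 units, against 0.00 over all genes. Both Hif1a-/- arrays lay below both WT arrays for 1 member, Bmi1, a pattern found in 8.33% of all genes, and above them for 0 members, found in 16.1%. With 2 arrays against 2, an exact permutation test of a single gene cannot give a two-sided p below 0.333. The replicates are separate samples per the labels, and the test measures the spread between them.

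The 95% intervals of the genotype differences show what these arrays could and could not detect. They were narrowest for Asxl1 (-0.36 to 0.41 log2 units), Tet2 (-0.29 to 0.55) and Ezh2 (-0.28 to 0.58), so a doubling of any of these 3 lies outside its interval. A doubling or a halving also lay outside the intervals of Dnmt1, Dnmt3a, Tet3, Ezh1 and Bmi1 (-0.93 to 0.29 for Bmi1). The Dnmt3b interval, -1.42 to 0.84, held a halving but not a doubling. For Tet1 the interval ran from -3.09 to 2.70, since its values spread widely between the numbers of each genotype. Within a number, the genotypes lay much closer for Tet1, with -0.25 in number 1 and -0.15 in number 2.

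**Figure D2:**
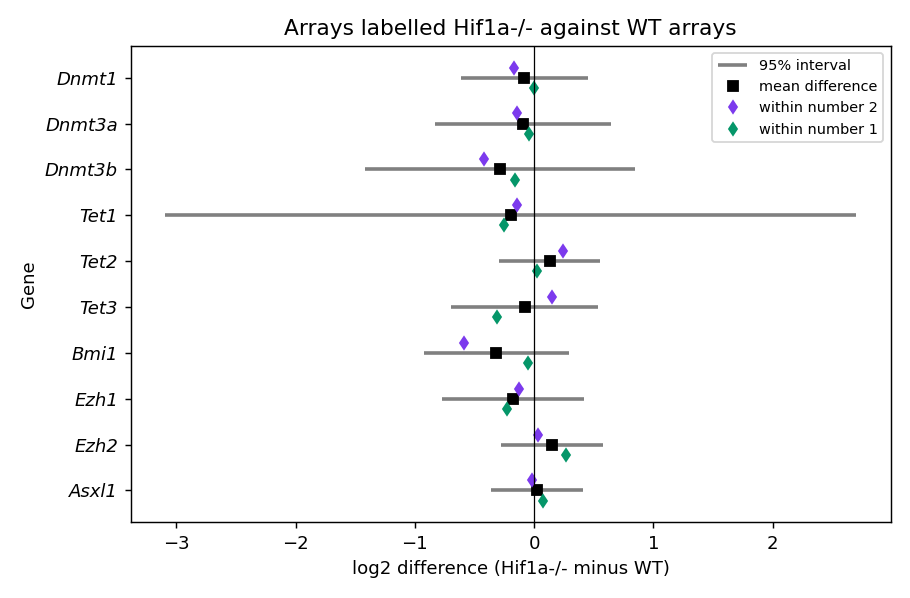
Log2 difference of each regulator, Hif1a-/- minus WT. Squares are means over 2 arrays per genotype, bars are limma's 95% intervals and diamonds are the single differences within number 2 (purple) and number 1 (green). All 10 intervals include 0, and Bmi1 has -0.58 within number 2 and -0.05 within number 1.

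The widest differences among the regulators lay between the array numbers. This comparison was chosen with earlier results of these data known, in which the numbers separated the arrays. Its p-values therefore describe these arrays and are not independent support for a split by number. Each number held 1 Hif1a-/- and 1 WT array, and the fit had no genotype term. The spread behind its SE, intervals and p-values was thus the gap between genotypes within a number, not that of replicates of a condition. Tet1 was lower on the arrays numbered 2 past the threshold, as were 585 of 19938 genes (2.93%), while 0 members and 759 genes (3.81%) were higher. In all, 9 of the 10 members had a lower mean on number 2 and 1, Tet2, a higher one, where 55.4% of all genes were lower. For 8 members both arrays numbered 2 lay below both numbered 1, a pattern seen in 27.2% of all genes. For 1 member, Tet2, both lay above, as in 20.4% of all genes, and for Bmi1 the arrays overlapped. The median difference over the members was -0.31 log2 units, against -0.02 over all genes, and it was -0.36 within Hif1a-/- and -0.32 within WT. In either direction 1 member was called, against 6.74% of all genes, and at an unadjusted p under 0.05 there were 5 members, all lower, against 10.6% of all genes lower and 19.5% in either direction. The 1344 genes called over all 4 arrays became 319 without WT array 1, 458 without Hif1a-/- array 1, 4661 without WT array 2 and 4602 without Hif1a-/- array 2.

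**Figure D3:**
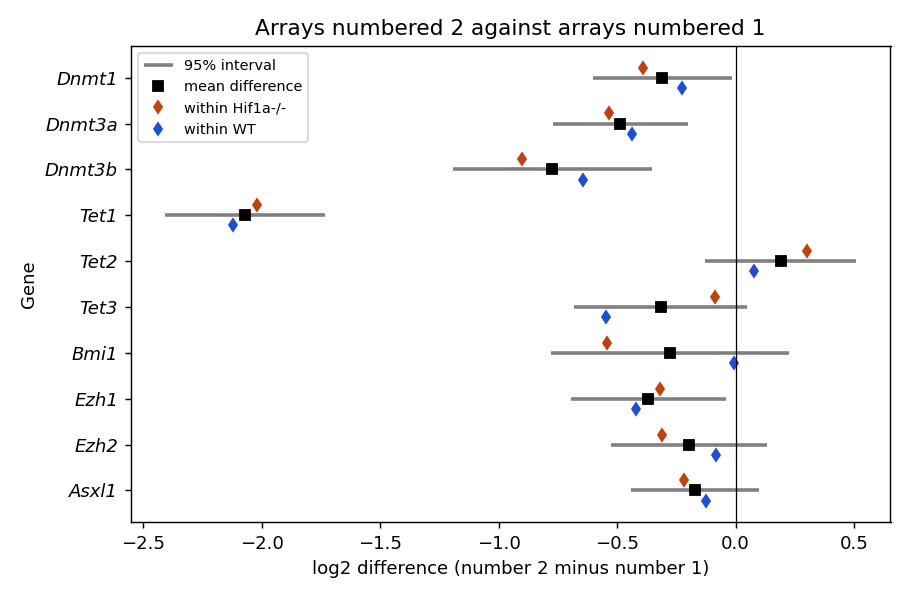
Log2 difference of each regulator, number 2 minus number 1. Squares are means over 2 arrays per number, bars are limma's 95% intervals and diamonds are the single differences within Hif1a-/- (orange) and within WT (blue). Tet1 stands apart at -2.07, Dnmt3b follows at -0.77, and Tet2 alone lies to the right of 0.

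Among the TET genes, Tet1 fell on the arrays numbered 2. Its log2 signal was 9.38 (Hif1a-/-) and 9.52 (WT) on the arrays numbered 2, against 11.39 (Hif1a-/-) and 11.64 (WT) on those numbered 1. The groups lay 1.87 log2 units apart at their nearest, and arrays of the same number lay 0.15 (number 2) and 0.25 (number 1) apart. The difference was -2.07 (SE 0.14, 95% interval -2.41 to -1.73), a signal 4.20-fold lower, with an adjusted p of 0.00326 in limma. It was -2.02 within Hif1a-/- and -2.12 within WT. By size it was the 14th lowest difference of all 19938 genes, and by p the 45th smallest.

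The platform holds 3 probe sets named Tet1, and all 3 showed the same split. The brightest, used above, differed by -2.07, and the others by -1.78 (SE 0.14) and -1.63 (SE 0.22). Tested among all 35556 probe sets, the first pair had adjusted p-values of 0.0391 and 0.0424 in limma, and the dimmest 0.0706. On that dimmest probe set the arrays numbered 2 had 8.16 (Hif1a-/-) and 8.71 (WT), against 10.07 on both arrays numbered 1. Averaging the 3 gave a difference of -1.83.

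**Figure D4:**
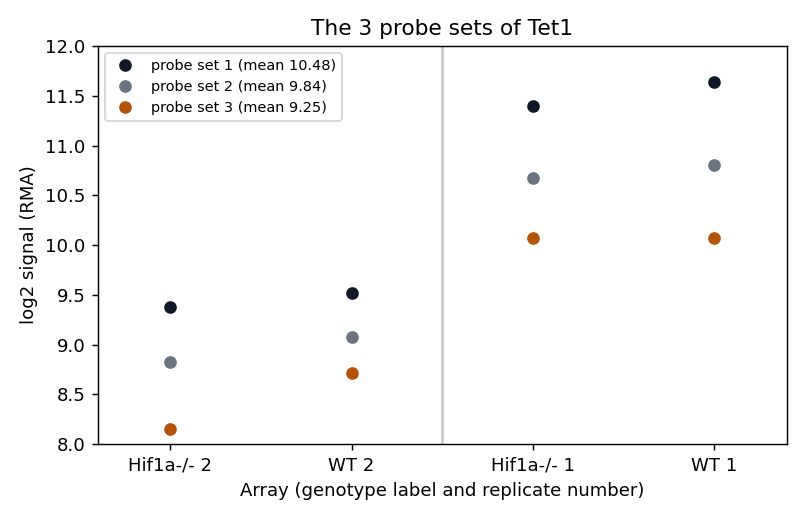
Log2 signal (RMA) of the 3 Tet1 probe sets on each array, ordered by number. On every probe set both arrays numbered 2 (left) lie below both arrays numbered 1 (right), by 1.87, 1.60 and 1.35 log2 units at the nearest, while the genotypes within a number lie at most 0.56 apart.

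Neither of the other two TET genes passed the test. Tet2, the family member most often mutated in human blood disease, had 10.27 (Hif1a-/-) and 10.03 (WT) on the arrays numbered 2, against 9.97 (Hif1a-/-) and 9.95 (WT) on those numbered 1. Its difference between numbers was 0.19 (SE 0.13, interval -0.13 to 0.51), which did not pass the test. Between genotypes Tet2 averaged 10.12 ± 0.21 in Hif1a-/- and 9.99 ± 0.06 in WT (SD, n = 2 each), a difference of 0.13 (SE 0.15). Tet3 had 10.38 (Hif1a-/-) and 10.23 (WT) on the arrays numbered 2, against 10.47 (Hif1a-/-) and 10.77 (WT) on those numbered 1. Its difference between numbers, -0.32 (SE 0.15), came mostly from WT (-0.55), with -0.09 within Hif1a-/-.

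Tet3 was also the TET gene whose genotype difference changed sign between numbers, at -0.31 in number 1 and 0.15 in number 2. Its 2 probe sets disagreed in sign between genotypes, with -0.08 (SE 0.22 among genes) for the brighter and 0.22 (SE 0.27 among probe sets) for the other. Set against Tet2 on the same array, Tet1 changed by -2.32 within Hif1a-/- and by -2.20 within WT on number 2 relative to number 1. Set against Tet3 it changed by -1.93 within Hif1a-/- and by -1.58 within WT. Each of these unequal changes had an exact two-sided permutation p of 0.333, the smallest that 4 arrays allow.

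The genes whose centred values over the 4 arrays lay nearest to those of Tet1 were Cyp2j9, Sema3d and Satb1. Their root mean square distances from Tet1 were 0.07, 0.09 and 0.11 log2 units. Satb1, which encodes a chromatin organiser of lymphoid cells, had 10.02 (Hif1a-/-) and 10.35 (WT) on the arrays numbered 2, against 11.99 (Hif1a-/-) and 12.17 (WT) on those numbered 1. For Asxl1, the member with the narrowest range, the nearest were Rnf103, Myo3a and Traf2, at distances of 0.01 each. With 4 arrays these neighbours only describe the arrays.

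All 3 DNA methyltransferase genes had lower signals on the arrays numbered 2 than on those numbered 1, though none passed the test over all genes. Dnmt3b, which sets new methylation, had 8.95 (Hif1a-/-) and 9.36 (WT) on the arrays numbered 2, against 9.85 (Hif1a-/-) and 10.01 (WT) on those numbered 1. The groups did not overlap, and the difference was -0.77 (SE 0.17, interval -1.19 to -0.35), with an adjusted p of 0.0585 in limma. That p lay on the other side of the threshold with genotype as a covariate (0.0454), after quantile normalization (0.0360), without WT array 2 (-0.98, 9.84e-05) and without Hif1a-/- array 2 (-0.57, 0.00583). Under the other alternatives it did not pass and reached 0.373 (without WT array 1), with 0.192 both without Hif1a-/- array 1 and with all probe sets.

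Dnmt3a, a frequent target of mutation in human clonal blood formation, had 9.69 (Hif1a-/-) and 9.83 (WT) on the arrays numbered 2, against 10.23 (Hif1a-/-) and 10.27 (WT) on those numbered 1. The difference was -0.49 (SE 0.12, interval -0.77 to -0.20), with an adjusted p of 0.0730 in limma. The adjusted p was 0.0455 after quantile normalization, 0.00410 without WT array 2 (-0.56) and 0.0235 without Hif1a-/- array 2 (-0.41). Under the other alternatives it did not pass and reached 0.598 (without WT array 1), with 0.435 without Hif1a-/- array 1, 0.196 with all probe sets and 0.122 with genotype as a covariate.

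Dnmt1, the maintenance enzyme, had 11.32 (Hif1a-/-) and 11.49 (WT) on the arrays numbered 2, against 11.71 on both arrays numbered 1. Its difference between numbers was -0.31 (SE 0.12), with an adjusted p of 0.228 in limma (0.0284 without WT array 2, at -0.39). On the same array Dnmt3b changed by more than Dnmt1, by -0.51 within Hif1a-/- and -0.42 within WT, again with the smallest exact permutation p possible, 0.333.

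Between genotypes the 3 methyltransferase genes had lower means in Hif1a-/-, and none passed the test. Dnmt3b averaged 9.40 ± 0.64 in Hif1a-/- and 9.69 ± 0.46 in WT (SD, n = 2 each), a difference of -0.29 (SE 0.41). Its values within the numbers were -0.16 (number 1) and -0.42 (number 2). Dnmt3a differed by -0.09 (SE 0.27) and Dnmt1 by -0.08 (SE 0.19). On the arrays numbered 1, Dnmt1 (0.00) and Dnmt3a (-0.04) were nearly the same in both genotypes.

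Bmi1, the PRC1 subunit, was the one member whose genotypes did not overlap, and 1 array carried most of that. Its log2 signal was 10.07 and 9.53 on Hif1a-/- arrays 1 and 2, and 10.12 and 10.11 on WT arrays 1 and 2. Only Hif1a-/- array 2 lay apart, and the remaining 3 arrays were within 0.05 of each other. The difference was -0.32 (SE 0.22, interval -0.93 to 0.29), with an adjusted p of 0.9998 in limma. It was -0.05 within number 1 and -0.58 within number 2, and without Hif1a-/- array 2 it was -0.04. Between numbers Bmi1 differed by -0.28 (SE 0.20), with -0.54 within Hif1a-/- and -0.01 within WT. That difference was -0.57 without WT array 2 (adjusted p 0.00368 in limma) and 0.02 without Hif1a-/- array 2.

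The 2 catalytic subunits of PRC2 differed in opposite directions between genotypes, each within its error. Ezh2, the form that dominates in dividing cells, had 12.16 and 11.85 on Hif1a-/- arrays 1 and 2, and 11.90 and 11.81 on WT arrays 1 and 2. The difference was 0.15 (SE 0.15), and it was 0.27 in number 1 and 0.04 in number 2. Ezh1, the form kept in resting cells, had 10.01 and 9.70 on the Hif1a-/- arrays, and 10.24 and 9.82 on the WT arrays.

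The Ezh1 difference between genotypes was -0.18 (SE 0.21), with -0.23 and -0.13 within numbers 1 and 2. Ezh2 set against Ezh1 on the same array was thus higher in Hif1a-/- by 0.50 in number 1 and by 0.17 in number 2, with an exact two-sided permutation p of 0.333, the smallest possible. Between numbers Ezh1 differed by -0.37 (SE 0.13, adjusted p 0.201 in limma, and 0.0301 without WT array 2, at -0.43) and Ezh2 by -0.20 (SE 0.13).

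Asxl1, the Bap1 partner, varied least of the 10. It had 10.97 and 10.75 on Hif1a-/- arrays 1 and 2, and 10.90 and 10.77 on WT arrays 1 and 2, a range of 0.22 log2 units. The genotype difference was 0.03 (SE 0.14), and the number difference was -0.17 (SE 0.11). Ordered by range over the arrays among all 19938 genes, Asxl1 ranked 14530 and Tet1 ranked 176.

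No partner of these regulators passed the test between genotypes. Over 70 measured genes of 6 lists (DNA methylation partners and readers, PRC2, PRC1, ASXL and Bap1 partners, trithorax and H3K27 demethylases, and INK4 inhibitors), 0 had an adjusted or unadjusted p under 0.05 in limma. The medians ran from -0.10 (PRC1) to 0.04 (INK4 inhibitors), against 0.00 over all genes. In PRC1, 14 of 18 had a lower mean in Hif1a-/-, where 49.4% of all genes did. The PRC1 median was -0.06 within number 1 and -0.28 within number 2. Rybp, a subunit of variant PRC1, was at -0.29 (SE 0.15), with -0.13 within number 1 and -0.44 within number 2. In the DNA methylation list 10 of 17 were higher, where 50.6% of all genes were. The uracil glycosylase gene Smug1 was at 0.15 (SE 0.11) and the methyl-CpG reader gene Zbtb33 at -0.31 (SE 0.23). For Zbtb33 the values were 0.10 within number 1 and -0.72 within number 2.

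Between numbers, some partners passed the test in both directions. In the DNA methylation list 2 of 17 rose and 1 fell, where 3.81% of all genes rose and 2.93% fell, counts too small to set the list apart. Idh1, whose enzyme makes 2-oxoglutarate, the TET cosubstrate, rose by 1.17 log2 units (SE 0.11, adjusted p 0.00590 in limma), with 10.89 (Hif1a-/-) and 11.01 (WT) on the arrays numbered 2, against 9.81 (Hif1a-/-) and 9.75 (WT) on those numbered 1. Idh2, of the same list, went the other way without passing, at -0.42 (SE 0.21), with -0.68 within Hif1a-/- and -0.15 within WT. Gadd45b, a stress-response gene linked to DNA demethylation, rose by 1.12 (SE 0.14). Cxxc5, a CpG-binding protein of the family that includes a TET partner, fell by 1.03 (SE 0.15), whereas Zbtb38 differed by -0.47 (SE 0.12) without passing.

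Polycomb partners were mostly lower in PRC1 and divided in PRC2. Of 18 PRC1 genes 15 had a lower mean and 2 fell past the threshold, with 0 rising and a median of -0.26, where 55.4% of all genes had a lower mean, 2.93% fell, 3.81% rose and the median was -0.02. Phc1, a Polyhomeotic subunit, fell by 0.83 (SE 0.14) and Cbx2, a reader of methylated H3K27, fell by 0.77 (SE 0.13). Of 9 PRC2 genes 5 had a lower mean and 0 passed in either direction (2 at an unadjusted p under 0.05), with a median of -0.05. The PRC2 accessory gene Mtf2 was at -0.42 (SE 0.16) and Jarid2 at 0.29 (SE 0.11).

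Of 14 trithorax and H3K27 demethylase genes 11 had a lower mean, 1 fell past the threshold and 0 rose. Among all genes 55.4% had a lower mean, 2.93% fell and 3.81% rose, so 1 call does not set the list apart. The list median was -0.30, with -0.16 within Hif1a-/- and -0.42 within WT. The gene that fell was Kmt2e (-0.65, SE 0.13), and Setd1b was at -0.59 (SE 0.13). Among 8 ASXL and Bap1 partners 0 passed and the median was -0.22, with Ogt, the O-GlcNAc transferase gene, at -0.82 (SE 0.18). The 4 INK4 genes, Polycomb targets that block the cell cycle, had a median of 0.05 and 0 passed. Cdkn2a ran from 8.49 to 8.62 over the arrays and was 0.06 higher on number 2 (SE 0.11).

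Proliferation genes, with which Dnmt1 and Ezh2 are usually co-expressed, gave no call in either comparison. Of 21 measured, 0 passed between genotypes or between numbers in limma (0 and 1 at an unadjusted p under 0.05). Their median was -0.06 between genotypes, with 0.24 in number 1 and -0.31 in number 2. Between numbers the median was -0.06, with -0.30 within Hif1a-/- and 0.16 within WT. Ccne1 was 0.79 higher on number 2 (SE 0.18) and Mcm7 was at -0.36 (SE 0.16).

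Markers of stem cells and of myeloid cells moved with the arrays' number, as Tet1 did. In the list of stem cell and LSK genes 7 of 8 were lower on number 2, where 55.4% of all genes were. Past the threshold 5 of the 8 fell, where 2.93% of all genes did. The summed linear signal of that list was 10205 (Hif1a-/-) and 14692 (WT) on the arrays numbered 2, against 29330 (Hif1a-/-) and 32373 (WT) on those numbered 1. Such a sum is weighted to the brightest genes, here Cd34, Flt3 and Kit on every array. The stem cell transcription factor genes Hlf and Meis1 fell by 2.95 (SE 0.27) and 2.28 (SE 0.22).

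Neutrophil genes went the other way, with 14 of 14 higher on number 2 and 10 risen past the threshold. Of all genes, 44.6% were higher and 3.81% rose past the threshold. The summed neutrophil signal was 98070 (Hif1a-/-) and 76274 (WT) on the arrays numbered 2, against 33056 (Hif1a-/-) and 39837 (WT) on those numbered 1. Of 9 mast and basophil genes 8 were higher and 6 rose past the threshold, while Gata2 was at -0.42 (SE 0.14). Their summed signal was 21789 (Hif1a-/-) and 20536 (WT) on number 2, against 9333 (Hif1a-/-) and 8082 (WT) on number 1. Monocyte genes (5 of 8 rose past the threshold) had 12898 (Hif1a-/-) and 18806 (WT) on number 2, against 7718 (Hif1a-/-) and 6535 (WT) on number 1. No marker was at 0, as RMA signals have no zero. The part of these markers in the Tet1 and Dnmt3b differences was not tested. In a bulk sample, fewer cells of a type and less RNA per cell cannot be told apart.

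**Figure D5:**
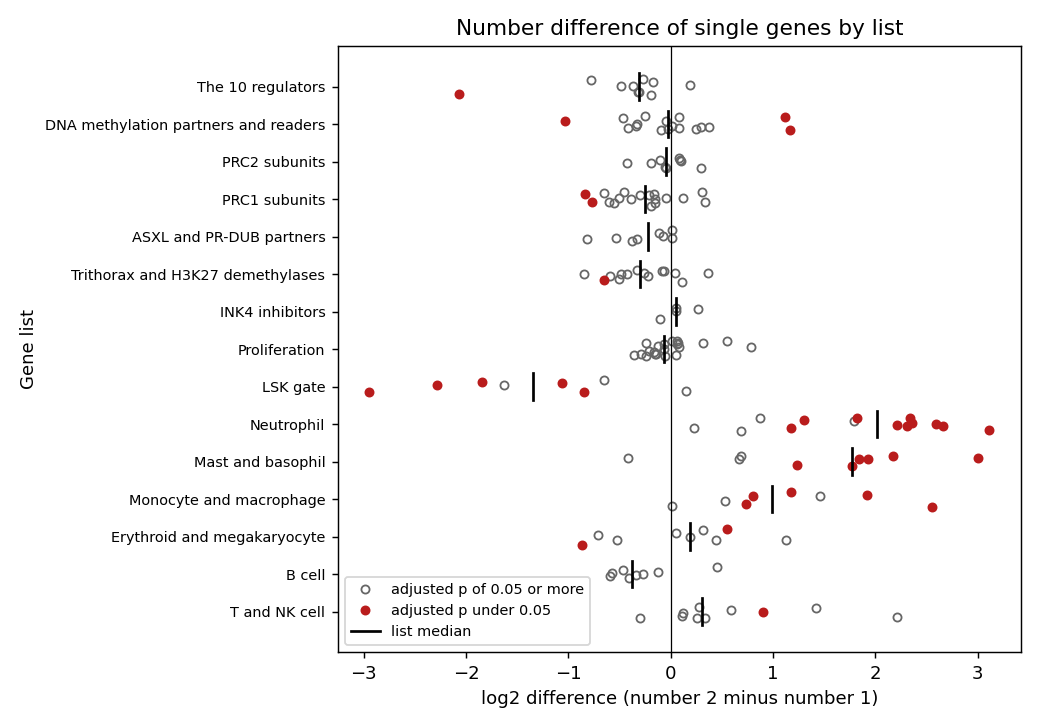
Log2 difference, number 2 minus number 1, of every measured gene in each list, with 1 point per gene, red where limma's adjusted p was under 0.05, and a black bar at the list median. The 10 regulators have a median of -0.31 with Tet1 alone in red, the stem cell and LSK genes (LSK gate) a median of -1.34 and the neutrophil genes 2.01.

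B-cell genes were higher in Hif1a-/- in the mean for 8 of 8, where 50.6% of all genes were, with 4 at an unadjusted p under 0.05, where 0.727% of all genes were, and 0 past the threshold in limma. Their median was 0.90 between genotypes and -0.37 between numbers. Vpreb1, of the surrogate light chain, was 0.85 higher in Hif1a-/- (SE 0.13). T and NK genes had a median of 0.18 between genotypes and 0.30 between numbers, with 1 of 10 risen on number 2 past the threshold, Cd8a. Of 9 erythroid and megakaryocyte genes 1 rose on number 2 (Epor) and 1 fell (Car2). Among all genes 3.81% rose and 2.93% fell, so counts of 1 do not set these lists apart. Between genotypes 0 of the erythroid and megakaryocyte genes passed (0 at an unadjusted p under 0.05 in limma).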

How the data were processed

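Total RNA of sorted bone marrow cells was amplified, labelled with biotin and hybridised to 4 Affymetrix whole-transcript arrays (labels' protocols). The submitters' processing notes name RMA and Affymetrix Expression Console 1.1, and the deposited table holds log2 values, a base read from their range of 3.08 to 14.88. RMA normalizes probe signals to a common distribution, so a change shared by all genes is largely removed. The deposited probe set values still differed between arrays in spread and median. Their interquartile ranges were 2.61 (WT 1), 2.60 (Hif1a-/- 1), 2.78 (WT 2) and 2.49 (Hif1a-/- 2). The medians were 8.31 (WT 1), 8.32 (Hif1a-/- 1), 8.19 (WT 2) and 8.35 (Hif1a-/- 2). For the probe sets, a genome build is not given here. The table held 0 columns of other samples.

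Of 35556 probe sets, the platform annotation gave 1 gene symbol to 21789, several to 1621 and none here to 12146. Probe sets with 1 symbol gave 19938 genes, of which 999 had over 1 probe set. Arrays were grouped by title. limma 3.58.1 in R 4.3.3 (lmFit, eBayes, two-sided, no covariates) compared Hif1a-/- with WT and number 2 with number 1, each over all 4 arrays, with Benjamini-Hochberg adjustment over all genes and a threshold of 0.05. No dim probe sets were left out. The small number of arrays limits the precision.

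The lists named 173 further genes in 14 lists, of which 157 were matched. Members, lists and the comparison of numbers were chosen with earlier results of these data known. Named in each list were up to 2 genes per direction and comparison with the smallest p. Kit was added as a marker of the gate, together with Cd34 and Flt3, which do not define it. Idh2 was added beside Idh1. Nearest genes to the members with the widest and the narrowest range were taken by root mean square distance of centred values. Promoters are RefSeq's, from GRCm38.p6, with all 10 members matched. The alternatives added the replicate number as a block or genotype as a covariate, dropped each array, used quantile normalization or median centring, or tried the dimmest 40% of genes left out, averaged probe sets, all probe sets, and eBayes with trend and robust. The fit was tested on simulated data.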

Additional observations from a re-analysis of the deposited data

How the results depend on the processing

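Across the alternatives tried, Tet1 stayed past the threshold between numbers in each, with a difference between -2.19 and -1.83 log2 units. No genotype comparison called a gene under any alternative (0 in each). At an unadjusted p under 0.05 the count ran from 39 of 11963 genes (dimmest left out) to 692 of 35556 probe sets. Counts given for all probe sets are of probe sets and not of genes. The count of genes called between numbers, 1344, became 335 when all probe sets were tested, and ran from 319 (without WT array 1) to 4661 (without WT array 2) with an array left out; it was 458 without Hif1a-/- array 1 and 4602 without Hif1a-/- array 2. In those last fits a lone array is assumed to vary like the others, and the cause was not tested. Without WT array 2, Dnmt1, Dnmt3a, Dnmt3b, Bmi1 and Ezh1 also passed between numbers, and without Hif1a-/- array 2, Dnmt3a and Dnmt3b did.

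Genotype differences of single members turned sign more easily. For Tet3 it was 0.0046 after quantile normalization and 0.072 with averaged probe sets, against -0.08. With each array left out in turn, the ranges that crossed 0 were -0.28 to 0.11 (Dnmt1), -0.36 to 0.18 (Dnmt3a), -0.74 to 0.16 (Dnmt3b), -1.26 to 0.86 (Tet1), -0.019 to 0.28 (Tet2), -0.35 to 0.19 (Tet3), -0.39 to 0.030 (Ezh1), -0.0047 to 0.31 (Ezh2) and -0.083 to 0.13 (Asxl1). Between numbers, only Bmi1 crossed 0, from -0.57 to 0.016. With the replicate number as a block, 0 genes passed between genotypes (478 at an unadjusted p under 0.05), and the block changed no call of a member. Same-numbered arrays deviated together from their genotype means (r = 0.67 across genes), but the labels do not say that a number marks a shared source. With 4 arrays and no repeat hybridisations, the median standard error of a difference was 0.15 log2 units between genotypes and 0.129 between numbers, which limits what could be detected.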
